A study of Mus musculus with 4 samples.

Results

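Amphiregulin and the type 2 cytokine genes were followed in ChAT-eGFP+ cells sorted from the stromal vascular fraction of mouse inguinal subcutaneous white adipose tissue. The group holds 8 of the 31053 genes in the count tables: the epidermal growth factor ligand Areg, the cytokines Il13, Il5, Il4, Il2 and Csf2, and the cytokine receptors Il1rl1 and Il17rb. They were selected by name, with earlier results from these same libraries known, so their levels by cell type are given as a description and their changes with temperature are not independent evidence that such genes respond. The mice carried ChATBAC-eGFP, a transgene that marks cells with a bacterial artificial chromosome copy of the choline acetyltransferase locus, in all groups. Male mice were placed at 30 °C at 5 weeks of age and stayed there for 3 weeks. The 30 °C group then stayed at thermoneutrality for a further 4 h, and the 4 °C group was exposed to cold for 4 h. Per the study's methods the cold mice also spent a day at room temperature before the exposure, so the day at room temperature and the cold cannot be told apart. Each group has 2 libraries, each from 4 pooled mice, of 3′ single-cell RNA-seq, in which every molecule counted carries a unique molecular identifier (UMI).

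Amphiregulin binds the epidermal growth factor receptor and is released by regulatory T cells and group 2 innate lymphoid cells (ILCs) during tissue repair. IL-13, IL-5 and IL-4 are the cytokines of type 2 immunity: IL-5 sustains eosinophils, and IL-4 and IL-13 act on macrophages and on stromal and epithelial cells. In adipose tissue, ILCs and regulatory T cells sense the alarmin IL-33 through ST2, the product of Il1rl1, and IL-25 is sensed through the receptor that contains the product of Il17rb. IL-2 sustains regulatory T cells and other lymphocytes, and GM-CSF, the product of Csf2, acts on myeloid cells.

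Of the 8 genes, 4 lie on mouse chromosome 11 (GRCm38, GENCODE M21). Il4 (chr11:53602982-53618669) and Il13 (chr11:53631324-53634702), both on the minus strand, are 12.7 kb apart, Il5 (chr11:53720794-53725106) is 86.1 kb from Il13, and Csf2 (chr11:54247271-54249667) is 522.2 kb further. Areg is on chromosome 5 (chr5:91139599-91148432), Il2 on chromosome 3 (chr3:37120523-37125959), Il1rl1 on chromosome 1 (chr1:40429570-40465415) and Il17rb on chromosome 14 (chr14:29996135-30008896). No other gene overlaps a member on its own strand. Il1rl1 has 5 annotated transcripts with 5 different 3′ ends, and the counts per gene do not separate the membrane receptor from the secreted decoy form.

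The 120 bases just before the transcription start are shown for the 4 genes that rose at 4 °C in CD4 T cells other than regulatory T cells, a group described below. The sequences are from RefSeq (GRCm38.p6), 5′ to 3′ on the gene's strand. Capitals mark the full cyclic AMP response element TGACGTCA, TATAA (or its complement TTATA), and GGAAA (or its complement TTTCC), the core that NFAT factors bind, all searched on both strands. The windows are chr5:91139479-91139598 for Areg (plus strand), chr11:53634703-53634822 for Il13, chr11:53618666-53618785 for Il4 and chr3:37125955-37126074 for Il2 (all minus strand).
Areg: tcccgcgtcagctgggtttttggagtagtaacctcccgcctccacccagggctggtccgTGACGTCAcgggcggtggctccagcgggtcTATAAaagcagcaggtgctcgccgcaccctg
Il13: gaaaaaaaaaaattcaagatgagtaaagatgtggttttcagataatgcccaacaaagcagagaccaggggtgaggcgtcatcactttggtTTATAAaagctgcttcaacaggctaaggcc
Il4: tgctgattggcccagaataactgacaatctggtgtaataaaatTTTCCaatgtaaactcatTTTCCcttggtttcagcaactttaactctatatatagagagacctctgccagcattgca
Il2: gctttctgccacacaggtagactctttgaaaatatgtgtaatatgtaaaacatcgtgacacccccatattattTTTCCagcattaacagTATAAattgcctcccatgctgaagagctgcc
The Areg window held TGACGTCA at position -61 and TATAA at position -31, counted back from the start. TGACGTCA was in 1.24% of the 32851 promoter windows of this length and in 1 of the 8 members. Il13 held TTATA at -30 and the overlapping TATAA at -29, Il2 held TATAA at -31, and TATAA or TTATA was in 11.85% of all windows. The NFAT core was in 5 of the 8 members and in 30.99% of all windows. These matches describe letters in a window, and no binding was measured.

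Cells were assigned by marker UMIs that include none of the 8 genes. After the study's limits on genes per cell and mitochondrial share, 5191 to 5388 cells remained per library. Regulatory T cells were T cells with Foxp3 (2971 cells), other CD4 T cells had Cd4 without Foxp3 or Cd8 and at most 1 Trdc UMI (1940 cells), and the ILC gate required Gata3, at least 3 UMIs of Il7r, Rora and Id2 together, at most 1 UMI over Cd3d, Cd3e and Cd3g, and no Foxp3 or Cd4 (453 cells). A wider ILC gate, added after the data were seen, allowed any number of Cd3g UMIs and took in 746 more cells, 1199 in all. In those added cells Cd3g was at 498 to 633 CPM (counts per 1e6, a gene's UMIs scaled to the total UMIs of the gate), while Cd3d was at 5.7 to 13.5 CPM, Cd28 at 1.7 to 12.1 CPM and Trac at 34.8 to 53.5 CPM. Over the 6 T receptor check markers, the added cells summed to 1050 to 1106 CPM at 30 °C and 1355 to 1367 CPM at 4 °C, mostly Trbc1 and Trbc2. This lies near γδ T cells, at 1438 to 1561 and 1969 to 1983 CPM, and below other CD4 T cells, at 5409 to 6023 CPM over the 4 libraries. The narrower ILC gate itself summed to 907 to 1032 CPM at 30 °C and 1099 to 1249 CPM at 4 °C. Whether either ILC gate includes T cells was not tested. In other CD4 T cells Cd3d was at 1029 to 1112 CPM, Cd28 at 395 to 412 CPM and Trac at 1163 to 1256 CPM. Of the independent ILC markers, Arg1 separated the ILC gate (46.3 to 78.8 CPM) from regulatory T cells (0.29 to 3.2 CPM). Klrg1 was lower in the ILC gate (10.3 to 31.0 CPM) than in regulatory T cells (71.0 to 91.1 CPM), and Hs3st1 and Rxrg were at or near 0 in both. Summed over the 8 innate lymphoid check markers, the ILC gate was at 367 to 440 CPM at 30 °C and 410 to 504 CPM at 4 °C. T cells gated by Cd8a and Cd8b1 were at 375 to 399 and 387 to 423 CPM. The summed list thus did not separate the ILC gate from these T cells, and the ranges of γδ T cells, given below, overlap it too. The summed regulatory T cell check markers, Ikzf2, Ctla4, Il2ra, Tnfrsf18, Tnfrsf4 and Capg, reached 4548 to 5168 CPM in the Foxp3 gate and 1493 to 1785 CPM in other CD4 T cells. Median UMIs per cell were somewhat higher at 4 °C in both ILC gates, regulatory T cells and other CD4 T cells, 7507 to 7997 against 6828 to 6899 in the ILC gate. In macrophages they were lower at 4 °C, 7777 to 8316.5 against 9283 to 9691. In γδ T cells they overlapped, 8189 to 9105 against 8632 to 9585. Between 10 and 18 cell barcodes were shared by any 2 libraries.

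Each gene had its own distribution over cell types. Summed over the libraries, regulatory T cells held the largest share of Areg UMIs, 40.4% of 7061, and the wider ILC gate held 24.9%. The order of these shares was the other way in 30 °C replicate 1, with 28.2% in regulatory T cells and 36.7% in the wider ILC gate. Regulatory T cells were 14.0% of all cells and the wider ILC gate 5.64%. Scaled to all UMIs of each gate, Areg was at 117 CPM in regulatory T cells and 152 CPM in the wider ILC gate. In 4 °C replicate 1 regulatory T cells were the higher, at 191 against 148 CPM. The wider ILC gate, with 5.64% of the cells, held 66.8% of Il13 UMIs (56.5% to 70.2% by library) and 67.3% of Il5 UMIs. For Il5 its share was 56.3% and 40.0% at 30 °C and 74.5% and 78.7% at 4 °C, and in 30 °C replicate 2 the cells outside every gate held as much. Other CD4 T cells, with 9.13% of the cells, held 40.9% of Il4 UMIs, against 23.3% in the wider ILC gate. In 30 °C replicate 1 the wider ILC gate held more of the UMIs, 34.7% against 24.5%. Over the libraries, 13.5% of other CD4 T cells and 22.5% of cells in the wider ILC gate had an Il4 UMI. Scaled to all UMIs of each gate, Il4 was at 54.1 and 41.9 CPM. Csf2 and Il2 were spread wider: the wider ILC gate held 51.4% of Csf2 UMIs and γδ T cells 16.0%, and Il2 was at 41.8% in the wider ILC gate and 14.9% in other CD4 T cells. The receptors differed from each other. Il17rb was at 48.4% in the wider ILC gate and 11.9% in regulatory T cells, whereas Il1rl1 was at 42.5% in regulatory T cells, 14.7% in macrophages and 14.3% in the wider ILC gate. Mast cells and basophils, a known source of IL-4 and carriers of ST2, were 2 cells in all and held 8 Il4 and 11 Il1rl1 UMIs.

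**Figure D1:**
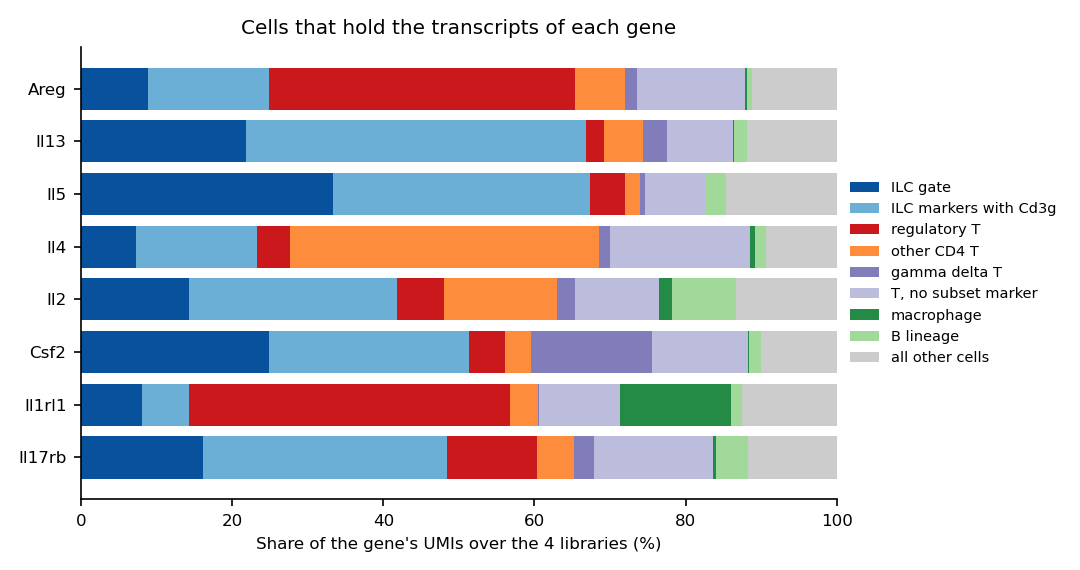
Share of each gene's UMIs (%, horizontal axis) in each cell gate, summed over the 4 libraries. The red bars of regulatory T cells lead for Areg (40.4%) and Il1rl1 (42.5%), both blue ILC bars together lead for Il13, Il5, Il2, Csf2 and Il17rb, and the orange bar of other CD4 T cells leads for Il4 (40.9%).

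At 4 °C against 30 °C, the ILC gate had higher Il13 and Il2 and lower Il1rl1 and Il17rb, regulatory T cells had higher Areg and lower Il1rl1, and other CD4 T cells had higher Areg, Il13, Il4 and Il2. These calls come from edgeR's quasi-likelihood test on UMIs summed per gate and library; p-values were adjusted by Benjamini-Hochberg over every gene tested in a gate, and the threshold was 0.05. In the ILC gate all 8 members were tested, and 2 were higher and 2 lower, where 1.66% of 7125 tested genes were called higher and 2.65% lower. The wider ILC gate gave the same 2 genes higher and the same 2 lower, with 3.00% of 9181 genes called higher and 4.44% lower. In regulatory T cells 6 members had enough UMIs to be tested, and 1 was higher and 1 lower, where 1.52% of 10571 genes were called higher and 1.92% lower. In other CD4 T cells 6 members were tested and 4 were higher, where 0.477% of 10056 genes were called higher, and none was lower, where 1.08% were. Il5 and Csf2 were too low for the test in both CD4 gates. Within a gate's summed UMIs, fewer producing cells and less RNA per cell cannot be told apart, and shares of cells with a UMI are therefore given beside them.

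**Figure D2:**
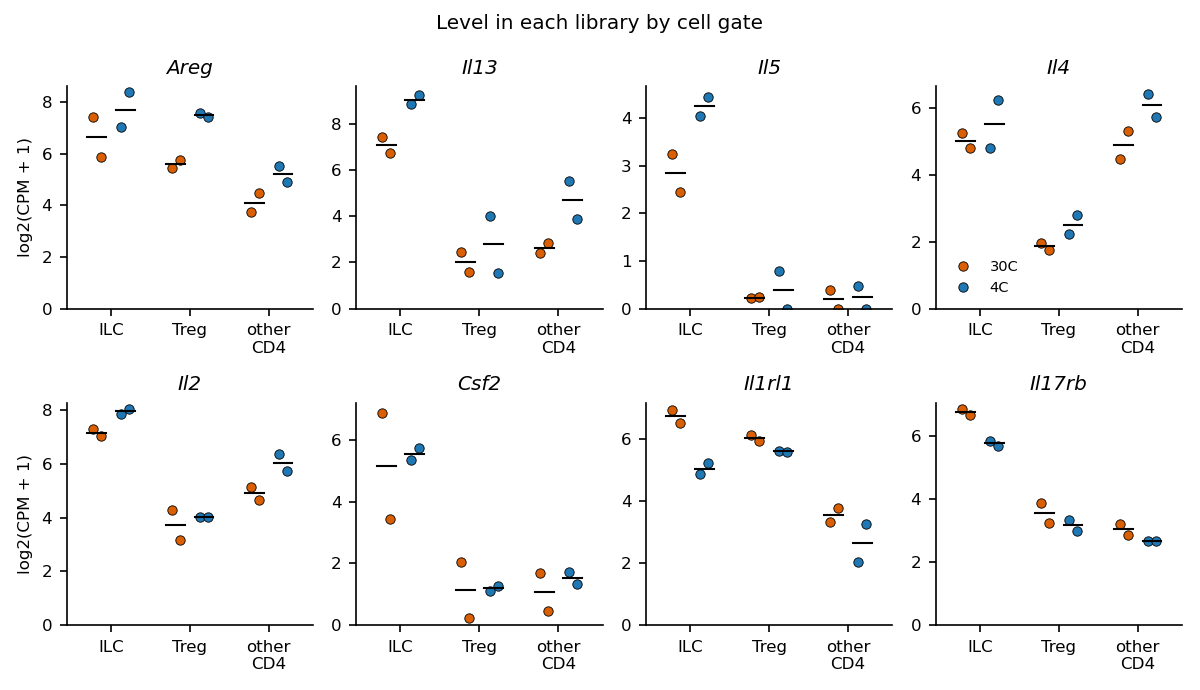
Level of each gene on a log2(CPM + 1) scale in the ILC gate, regulatory T cells and other CD4 T cells. Each point is 1 library (orange, 30 °C; blue, 4 °C) and each bar the mean of 2 libraries on that scale. Areg in regulatory T cells and Il13 in the ILC gate are higher in both 4 °C libraries than in either 30 °C library, and Il1rl1 and Il17rb in the ILC gate are lower.

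Areg rose in regulatory T cells. It was at 42.8 and 53.1 CPM in the 30 °C libraries and at 191 and 171.5 CPM in the 4 °C libraries, so the groups did not overlap. The change was 1.87 ± 0.11 on the log2 scale (SE, n = 2 libraries per group), or 3.65-fold, with an adjusted p of 3.82e-06 (edgeR). Here and below the SE is derived from edgeR's test, which moderates the variance between libraries over all genes tested. The share of regulatory T cells with an Areg UMI went from 10.7% and 13.2% to 29.0% and 26.9%. With cells thinned to 3700 UMIs, which left out 78 and 97 shallower cells at 30 °C and 55 and 39 at 4 °C, the shares were 7.74% and 10.4% at 30 °C and 23.0% and 20.3% at 4 °C. In B lineage cells, which serve as the measure of free RNA, 0.40% and 0.29% of cells had an Areg UMI at 30 °C and 0.79% and 0.48% at 4 °C. The 2 against 2 design cannot give an exact permutation p under 0.333 for such shares. The call was made in all 13 alternatives run, with log2 changes from 1.63 to 2.15. The 8 dissociation and stress genes, which include Fos, Jun and Egr1, summed to 2132 to 2254 CPM at 4 °C against 1638 to 1813 CPM at 30 °C in this gate. Of 7 tested, 2 were called higher, where 1.52% of all genes tested in the gate were. The part of these stress genes in the result was not tested. The 9 transcripts of other cells used to follow free RNA, such as Igkc and Lyz2, were also summed in regulatory T cells. They reached 2611 to 4865 CPM at 30 °C and 1707 to 2272 CPM at 4 °C. The part of free RNA in the Areg result was not tested.

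Areg in other CD4 T cells was at 12.2 and 21.4 CPM at 30 °C against 44.9 and 28.7 CPM at 4 °C, a change of 1.11 ± 0.25 (SE, n = 2; adjusted p = 0.0367, edgeR). The libraries overlapped in the ILC gate: Areg was at 170.3 and 57.4 CPM at 30 °C against 130.0 and 336 CPM at 4 °C, a log2 change of 0.95 ± 0.37 that was not called (adjusted p = 0.172, edgeR). The wider ILC gate gave 145.5 and 72.9 CPM at 30 °C against 148 and 244 CPM at 4 °C (0.76 ± 0.23, adjusted p = 0.0631). Both ILC gates thus show Areg at 30 °C in replicate 1 well above replicate 2. The log2 change in the ILC gate was 1.82 without 30 °C replicate 1 and 1.55 without 4 °C replicate 1. It was 0.25 without 30 °C replicate 2 and 0.21 without 4 °C replicate 2. Each of these fits leaves 1 library in a group and cannot show the spread within that group, so only the size of the change is given. The difference between the changes in regulatory T cells and ILCs was tested directly. It was -0.95 ± 0.42 for the ILC gate and missed the threshold (adjusted p = 0.453), where 1.07% of genes were called, and it was -1.12 ± 0.27 for the wider ILC gate and passed (adjusted p = 0.0336), where 2.14% were called.

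Il13, the effector cytokine of ILCs, showed the largest rise in the ILC gate among the 8 genes. It was at 175.9 and 106.6 CPM at 30 °C against 466.5 and 619 CPM at 4 °C, a log2 change of 1.88 ± 0.18 (SE, n = 2), or 3.68-fold (adjusted p = 2.96e-06, edgeR). In the wider ILC gate the values were 155 and 102 CPM at 30 °C against 480.0 and 681 CPM at 4 °C, a 4.31-fold change (adjusted p = 6.17e-07). The share of cells in the ILC gate with an Il13 UMI was 30.0% and 31.8% at 30 °C and 63.2% and 73.4% at 4 °C. At an equal depth of 5300 UMIs, with 14 and 13 shallower cells left out at 30 °C and 12 and 3 at 4 °C, it was 28.9% and 26.9% against 57.9% and 63.2%, so both 4 °C libraries stood above both 30 °C libraries. Il13 UMIs per positive cell were higher too, at a median of 3 and 2 in the 30 °C libraries and 4 in both 4 °C libraries. Identity markers moved in the same gate: of 5 tested innate lymphoid check markers Hes1 (-2.88 ± 0.55) and Ccdc184 (-2.05 ± 0.44) fell and Thy1 (0.57 ± 0.15) rose, and of 5 tested regulatory T check markers Tnfrsf18, Ctla4 and Il2ra fell. Over all genes tested in this gate, 1.66% were called higher and 2.65% lower. The summed T receptor check markers were at 907 to 1032 CPM at 30 °C and 1099 to 1249 CPM at 4 °C. The part of these shifts in the changes of the members in the ILC gate was not tested.

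Il13 in other CD4 T cells was at 4.4 and 6.3 CPM at 30 °C against 45.5 and 13.6 CPM at 4 °C, a log2 change of 2.45 ± 0.50 (adjusted p = 0.0174, edgeR). Few cells carried it, 1.81% and 1.79% (7 cells each) at 30 °C and 5.08% and 2.26% (30 and 13 cells) at 4 °C. A single cell held 40 of the 236 UMIs of 4 °C replicate 1, and another held 29 of the 63 of 4 °C replicate 2. The call was lost without each library's top cell. In regulatory T cells Il13 was at 4.4 and 2.0 CPM at 30 °C against 15.3 and 1.9 CPM at 4 °C and was not called (1.38 ± 0.69, adjusted p = 0.320). The change in regulatory T cells was 2.09 without 30 °C replicate 1, 2.16 without 4 °C replicate 2 and -0.84 without 4 °C replicate 1. A single regulatory T cell held 45 of the 105 Il13 UMIs of 4 °C replicate 1. The share of regulatory T cells with an Il13 UMI was 0.57% to 2.79% over the libraries, and that of B lineage cells, which had more UMIs per cell, was 0.25% to 1.32%. Scaled to all UMIs of each gate over the libraries, Il13 was at 6.4 CPM in regulatory T cells and 1.2 CPM in B lineage cells.

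Il5 was low even in the ILC gate, at 6 and 5 UMIs in the 30 °C libraries and 24 and 15 UMIs in the 4 °C libraries. This corresponds to 8.4 and 4.5 CPM against 15.4 and 20.9 CPM, and the groups did not overlap. The log2 change was 1.42 ± 0.48 (SE, n = 2) and did not pass (adjusted p = 0.105, edgeR). Regulatory T cells held 7 Il5 UMIs and other CD4 T cells 3 over all libraries.

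Il4 in other CD4 T cells was at 21.0 and 38.7 CPM at 30 °C against 84.4 and 51.9 CPM at 4 °C. The log2 change was 1.17 ± 0.24 (SE, n = 2; adjusted p = 0.0212, edgeR), and 9.59% and 10.8% of these cells had an Il4 UMI at 30 °C against 16.6% and 14.8% at 4 °C. A single cell held 112 of the 438 Il4 UMIs of 4 °C replicate 1; without each library's top cell the change was 1.05 (adjusted p = 0.0143). Il4 in the ILC gate was at 36.6 and 26.9 CPM at 30 °C against 27.0 and 73.9 CPM at 4 °C, which overlap (0.43 ± 0.37, adjusted p = 0.628). The ILC gate was above other CD4 T cells in 30 °C replicate 1 and 4 °C replicate 2 and below them in the other 2 libraries. Without 4 °C replicate 1 the change in the ILC gate was 1.16, and without 4 °C replicate 2 it turned to -0.26.

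Il2, the T cell growth factor, was called in both the ILC gate and other CD4 T cells. In the ILC gate it was at 156 and 129.9 CPM at 30 °C against 232 and 263.5 CPM at 4 °C, a log2 change of 0.71 ± 0.15 (SE, n = 2; adjusted p = 0.00742, edgeR). Among other CD4 T cells it went from 34.5 and 24.3 CPM to 82.7 and 51.7 CPM (1.13 ± 0.21, adjusted p = 0.0113). Regulatory T cells, which are known to need IL-2 from other cells, were at 18.7 and 8.1 CPM at 30 °C and at 15.2 CPM in both 4 °C libraries (0.09 ± 0.29, adjusted p = 0.900). The share of regulatory T cells with an Il2 UMI was 5.69% to 8.87%, and that of B lineage cells, which had more UMIs per cell, was 3.91% to 5.84%. Scaled to all UMIs of each gate over the libraries, Il2 was at 14.5 CPM in regulatory T cells and 5.1 CPM in B lineage cells.

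The 4 calls in other CD4 T cells were lost without 4 °C replicate 1, and several were lost under other settings. Without that library the log2 changes were 0.72 for Areg, 1.29 for Il13, 0.74 for Il4 and 0.73 for Il2. That fit leaves 1 library at 4 °C and cannot show the spread there. All 4 were also lost with no limit on UMIs of other lineages (adjusted p 0.084 to 0.248), those of Areg, Il13 and Il4 with a mitochondrial limit of 15% and with no upper gene limit, and that of Il4 under DESeq2 (0.542). None of the differences in change between other CD4 T cells and the ILC gate, the wider ILC gate or regulatory T cells passed for any member tested in both, where 0.301%, 0.366% and 0.220% of genes were called.

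Csf2 shows how 1 cell can set a sum. In the ILC gate it was at 118.2 and 9.9 CPM in the 30 °C libraries and at 40.5 and 53.0 CPM in the 4 °C libraries, a log2 change of -0.38 ± 0.54 (SE, n = 2; adjusted p = 0.805, edgeR). A single cell of 30 °C replicate 1 held 75 of that library's 84 Csf2 UMIs. Without the top cell of each library the UMIs were 9 in both 30 °C libraries, and 52 and 31 at 4 °C, and the change was 1.81 (adjusted p = 0.00475); in the wider ILC gate the same step gave 0.54 (adjusted p = 0.258). Leaving out 30 °C replicate 1 gave 2.11 and leaving out 30 °C replicate 2 gave -1.48. Each of these fits leaves 1 library at 30 °C and cannot show the spread there, so only the size of the change is given. The share of cells with a Csf2 UMI, which a single cell cannot move far, was 10.0% and 6.06% at 30 °C and 17.8% and 24.1% at 4 °C in the ILC gate. Thinned to equal depth it was 6.58% and 5.04% against 12.9% and 17.1%.

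**Figure D3:**
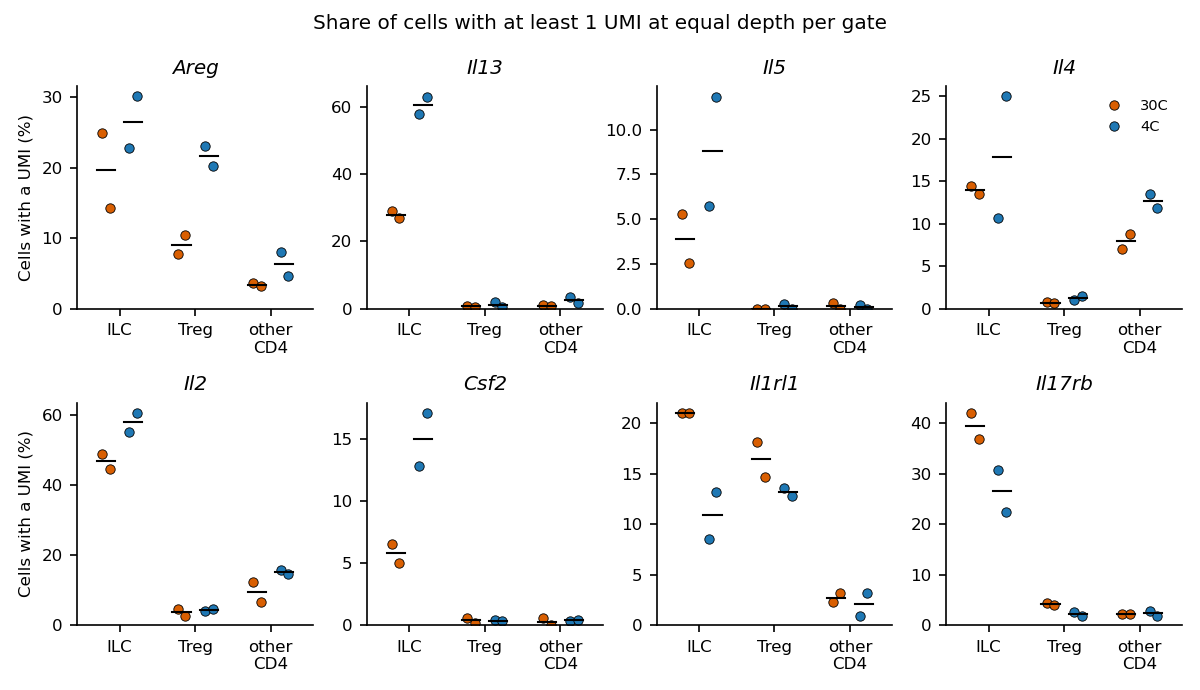
Share of cells (%) with at least 1 UMI of each gene in each library, with the cells of a gate thinned to the same number of UMIs (5300 in the ILC gate, 3700 in regulatory T cells, 3900 in other CD4 T cells) and shallower cells left out. Each point is 1 library (orange, 30 °C; blue, 4 °C) and each bar the mean. Csf2 in the ILC gate is higher in both 4 °C libraries here, although its summed CPM is not.

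The receptors of IL-33 and IL-25 moved the other way in ILCs. Il1rl1 in the ILC gate was at 121 and 91.4 CPM at 30 °C against 28.3 and 36.2 CPM at 4 °C, with no overlap. It fell by 1.82 ± 0.23 on the log2 scale (SE, n = 2; adjusted p = 4.77e-05, edgeR), which makes the 30 °C level 3.54-fold higher. The share of ILC gate cells with an Il1rl1 UMI was 25.6% and 22.0% at 30 °C and 9.87% and 13.9% at 4 °C. The wider ILC gate gave 69.7 and 61.0 CPM against 20.4 and 19.9 CPM, a change of -1.75 ± 0.16 (adjusted p = 2.73e-06).

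In regulatory T cells, which held its largest share in each library, Il1rl1 was at 69.0 and 59.5 CPM at 30 °C against 48.2 and 47.2 CPM at 4 °C, a smaller change of -0.49 ± 0.10 (adjusted p = 0.0268, edgeR). This call was lost without 30 °C replicate 1, without 4 °C replicate 2 and under DESeq2 (adjusted p = 0.161). Each fit without a library leaves 1 library in a group and cannot show the spread within it. The ILC gate and regulatory T cells differed in their change by -1.36 ± 0.24 (adjusted p = 0.00404), and the wider ILC gate and regulatory T cells by -1.28 ± 0.17 (adjusted p = 1.37e-04). Il1rl1 in other CD4 T cells was at 9.1 and 12.5 CPM at 30 °C against 3.1 and 8.6 CPM at 4 °C and was not called (-0.95 ± 0.38, adjusted p = 0.273). In macrophages it was at 51.6 and 68.1 CPM at 30 °C against 60.3 and 52.9 CPM at 4 °C, which overlap (-0.11 ± 0.17, adjusted p = 0.745, in a fit added after the values were seen, where 15.9% of 9086 genes were called). The other member tested in macrophages, Il2, was higher at 4 °C, at 6.4 and 6.8 CPM against 13.9 and 18.4 CPM (1.17 ± 0.35, adjusted p = 0.0421).

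Il17rb in the ILC gate was at 114.0 and 100.4 CPM at 30 °C against 56.6 and 50.2 CPM at 4 °C. It fell by 1.05 ± 0.19 on the log2 scale (SE, n = 2; adjusted p = 0.00234, edgeR), and 52.2% and 47.7% of cells had an Il17rb UMI at 30 °C against 43.4% and 36.7% at 4 °C. In regulatory T cells it was at 13.6 and 8.4 CPM at 30 °C against 9.0 and 7.0 CPM at 4 °C (-0.53 ± 0.26, adjusted p = 0.314). The ILC calls of Il17rb and Il2 were lost under a stricter ILC gate (adjusted p = 0.236 and 0.102) and were made in the wider ILC gate. There the Il17rb call was made in all 12 alternatives run, whereas the Il2 call was made in 7 of 12 (log2 changes 0.25 to 0.70, adjusted p up to 0.192). Il7r and Rora, which define the ILC gate, were themselves lower in it at 4 °C, by changes of -0.72 ± 0.10 and -0.58 ± 0.12, and what this did to gate membership was not tested.

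**Figure D4:**
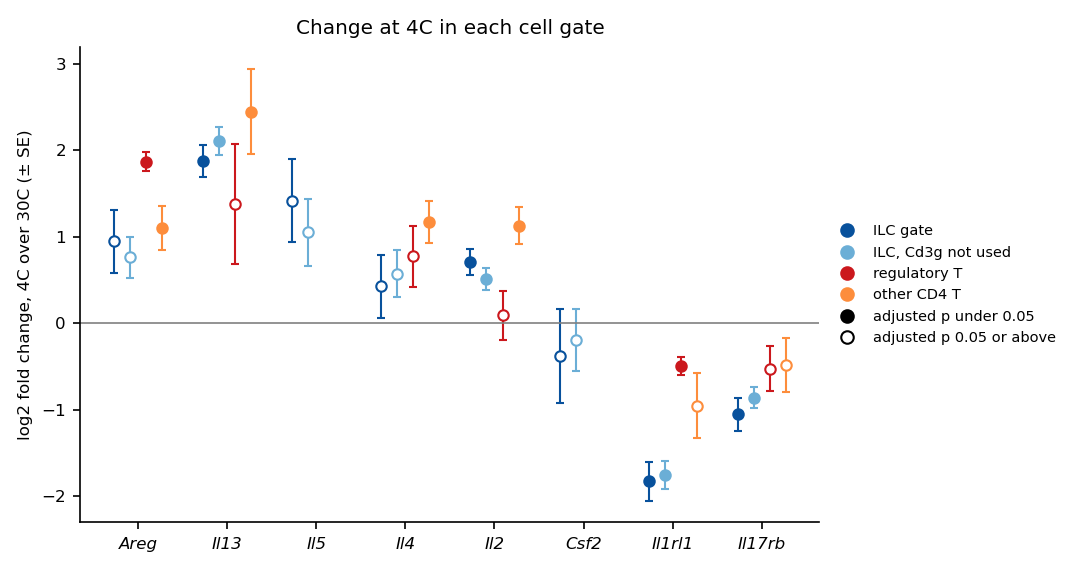
Log2 fold change of each gene at 4 °C over 30 °C (vertical axis) with its SE in the ILC gate, the wider ILC gate (named ILC, Cd3g not used), regulatory T cells and other CD4 T cells. Filled points have an adjusted p under 0.05. Il13 lies above 0 and Il1rl1 and Il17rb lie below 0 in all gates shown, with Il13 called in 3 of the 4 gates and Il17rb in both ILC gates.

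Outside these gates, γδ T cells were a further source of Csf2. In a fit added after the values were seen, 5 of the 6 members tested there were higher at 4 °C, where 2.57% of 8636 genes were called higher. Csf2 was at 15.7 and 8.3 CPM at 30 °C against 43.2 and 28.7 CPM at 4 °C (1.62 ± 0.32, adjusted p = 0.00363, edgeR), and Il13 was at 8.4 and 19.4 CPM against 56.7 and 133 CPM (2.51 ± 0.35, adjusted p = 2.21e-04). Il4, Il2 and Il17rb were the others called higher. The sums of Il13, Il4 and Il17rb rest on few cells. Il13 was in 9 and 6 cells at 30 °C and in 10 and 6 at 4 °C. Il4 was in 5 and 3 cells against 5 and 4, and Il17rb in 6 and 10 against 9 and 4. At equal depth the shares of cells with Il17rb overlapped. The fit without each library's top cell was not run for γδ T cells. The gate held 203 and 225 cells at 30 °C but 107 and 47 cells at 4 °C, and its summed innate lymphoid check markers were 349 to 413 CPM at 30 °C and 492 to 532 CPM at 4 °C. Its summed stress genes were 1203 to 1268 CPM at 30 °C and 1866 to 2349 CPM at 4 °C, its T receptor check markers 1438 to 1561 and 1969 to 1983 CPM, and its regulatory T check markers 881 to 1017 and 1178 to 1487 CPM. The part of these 4 lists in the result was not tested. Over all cells kept, Areg was at 17.9 and 16.1 CPM at 30 °C against 51.3 and 44.4 CPM at 4 °C, and Il13 went from 10.6 and 8.5 CPM to 55.7 and 43.9 CPM. Both were called (adjusted p = 0.0318 each), where 0.146% of 15076 genes were called higher, and the other 6 members were not. Both calls were lost without either 30 °C replicate, when no gene passed edgeR's test and 1695 genes (without replicate 1) or 1653 genes (without replicate 2) had an unadjusted p under 0.05.

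Detection of 2 members in the same cell was compared for 13 pairs in each gate, and the pairs given here were chosen after their values were seen. Areg was detected in the ILC gate in 33.3% and 28.6% of cells with Il13 at 30 °C and in 30.2% and 46.6% at 4 °C. Among cells without Il13 the shares were 17.5% and 11.1% at 30 °C and 17.9% and 9.52% at 4 °C. Among regulatory T cells, those with Il1rl1 had Areg in 17.6% and 22.1% of cells at 30 °C and in 48.3% and 41.0% at 4 °C, and those without Il1rl1 in 8.26% and 10.8% against 23.7% and 23.4%. The share was thus higher at 4 °C in regulatory T cells both with and without a detected Il1rl1 UMI. Cells with Il1rl1 held a median of 2 such UMIs at 30 °C and of 2 and 1 at 4 °C. Cells in which none was detected are therefore not shown to lack the ST2 transcript. Among other CD4 T cells with Il13, Il4 was found in 2 of 7 cells in each 30 °C library and in 18 of 30 and 8 of 13 cells in the 4 °C libraries. For the receptors the values lay the other way in the ILC gate: Il17rb was found in 43.5%, 44.8%, 40.0% and 27.3% of cells with Il1rl1 (30 °C replicates 1 and 2, then 4 °C) and in 55.2%, 48.5%, 43.8% and 38.2% of those without. The 4 °C values rest on 6 of 15 and 3 of 11 cells with Il1rl1. The wider ILC gate had the opposite order in 4 °C replicate 1 (51.4% against 43.2%) and the same order in the other libraries. Regulatory T cells had the opposite order in each library, at 17.6%, 9.40%, 6.98% and 6.25% against 6.46%, 4.87%, 5.83% and 3.93%. Cells with more UMIs hold more of every gene, and these shares were not thinned.

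Other genes of the pathway were taken from lists also drawn up with earlier results known. Among 16 other lymphocyte cytokines, 2 of 3 tested in the ILC gate, 4 of 10 in regulatory T cells and 6 of 10 in other CD4 T cells were higher at 4 °C, and 1 was lower, Il17a in other CD4 T cells (-2.94 ± 0.59). Over all genes tested, 1.66%, 1.52% and 0.477% were called higher in these 3 gates, and 2.65%, 1.92% and 1.08% lower. Tnf, a general inflammatory cytokine, rose in all 3 gates, by 0.90 ± 0.15, 0.96 ± 0.13 and 0.63 ± 0.12 on the log2 scale. Ifng, the type 1 cytokine, rose by 1.06 ± 0.24 in regulatory T cells and by 1.25 ± 0.12 in other CD4 T cells. In other CD4 T cells it was at 39.3 and 40.7 CPM at 30 °C against 95.1 and 103 CPM at 4 °C. Il10, the suppressive cytokine of regulatory T cells, rose in them by 0.87 ± 0.11, from 32.0 and 34.4 to 65.6 and 59.9 CPM. These CPM of Ifng and Il10 are scaled to the UMIs of the genes tested in the gate. Lymphotoxin beta, Ltb, also rose in all 3 gates (0.45 ± 0.12, 0.51 ± 0.06 and 0.51 ± 0.08). In other CD4 T cells Ccl1 (3.54 ± 0.73) was the largest rise of the list and Il21, a cytokine of follicular helper T cells, rose by 0.78 ± 0.15. The median log2 change of the tested genes of this list was 0.48, 0.25 and 0.57 in the ILC gate, regulatory T cells and other CD4 T cells, and the median over all tested genes lay between -0.01 and 0.00 in each.

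Of 15 receptor genes, Il7r, the IL-7 receptor chain, fell in all 3 gates, by changes of -0.72 ± 0.10 in the ILC gate, -1.55 ± 0.08 in regulatory T cells and -1.24 ± 0.10 in other CD4 T cells. Il2ra fell in the ILC gate (-0.86 ± 0.22) and Icos rose in regulatory T cells (0.35 ± 0.06), which leaves 6 of 8, 8 of 10 and 9 of 10 tested receptors that did not pass. Of the 18 transcription factors and signalling genes, Rora and Nfkb1 (-0.57 ± 0.13) were lower in the ILC gate and Rora in other CD4 T cells (-0.48 ± 0.11), and none of 18 tested passed in regulatory T cells. Gata3, the master factor of type 2 cells, did not pass in any of the 3 gates. Among 6 factors that shorten cytokine messenger RNA, Zfp36l2 fell in all 3 gates (-0.81 ± 0.10, -1.30 ± 0.08 and -0.98 ± 0.08), N4bp1 fell in both CD4 gates (-0.43 ± 0.08 and -0.97 ± 0.12), and Zfp36 (0.51 ± 0.07) and Zfp36l1 (0.47 ± 0.08) rose in regulatory T cells. No feedback gene (Cish, Socs1, Socs2, Socs3) passed in these 3 gates. For these lists too, 1.66%, 1.52% and 0.477% of all genes tested were called higher in the 3 gates. The shares called lower were 2.65%, 1.92% and 1.08%. The other EGF family ligands were too low to test, the sheddase Adam17 did not pass in any of the 3 gates, and of the alarmins Il33, Il25, Tslp and Il18 the first 3 were not tested in any gate.

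**Figure D5:**
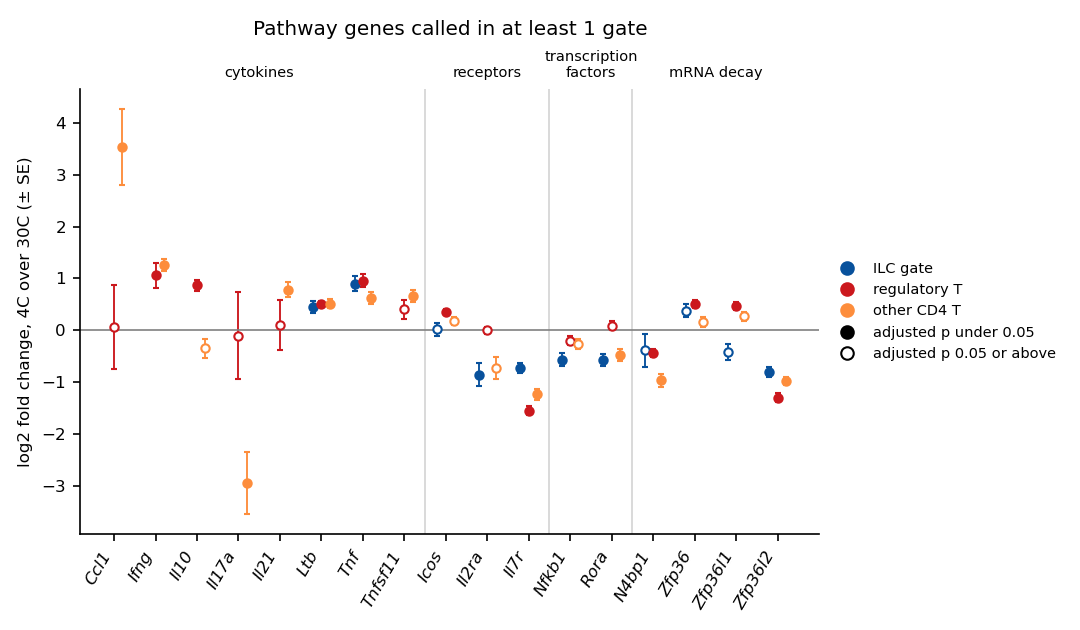
Log2 fold change at 4 °C over 30 °C (vertical axis, with SE) of the cytokines, receptors, transcription factors and mRNA decay factors called in at least 1 of the ILC gate, regulatory T cells and other CD4 T cells. Filled points have an adjusted p under 0.05. Tnf and Ltb are above 0 and Il7r and Zfp36l2 below 0 with filled points in all 3 gates.

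Across 44 sums of 11 gates and 4 libraries, the genes with levels most like Areg on the log2(CPM + 1) scale were Nav2 (Pearson's r = 0.90), Rln3 (0.89), Egln3 (0.87), Ccr8 (0.87) and Chdh (0.86). For Il13 they were Hlf (0.89), Cntnap1 (0.87), Arg1 (0.86), Tktl1 (0.86) and Uhrf2 (0.85). Among the members, Areg was most like Il17rb (0.85) and Il13 most like Csf2 (0.86), while Il1rl1 and Csf2 were least alike (0.31). These values describe gates that share libraries and depth.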

How the data were processed

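Libraries were made with Chromium 3′ version 3 chemistry from ChAT-eGFP+ cells, and reads were aligned with STAR in Cell Ranger (3.1.0 in the submitters' processing notes, 3.0.0 in the file headers) to mm10 (GRCm38). The authors deposited filtered matrices of raw UMI counts, with 6272 to 6883 cells and 76058112 to 84468931 UMIs per library. Following the study's limits, genes in at least 10 cells, cells with over 200 and under 5000 genes and under 7.5% mitochondrial UMIs were kept, and doublets were handled only by the upper gene limit. UMIs were summed per gate and library and tested with edgeR 4.0.16 (quasi-likelihood, TMM, R 4.3.3) and p-values were adjusted by Benjamini-Hochberg over every gene tested. DESeq2 1.42.0 was an alternative. The study tested single cells; here libraries, each a pool of 4 mice, were the replicates. Sums were computed with pandas 2.3.3. The scripts were tested on simulated data. Members, gates and lists were chosen with earlier results of these data known. Named genes were the 8 members, up to 4 called genes with the largest change per list and gate, and the 5 genes most like Areg and Il13; Tnf and Ltb in other CD4 T cells were named after their values were seen. The wider ILC gate, the fits in macrophages and γδ T cells, the crossed block and the fits without each library's top cell were chosen after seeing the data. The SEs of the folds were derived from edgeR's test, as the absolute log2 change over the square root of its F statistic. That test moderates the variance between libraries over all genes tested, so the SEs are not the plain spread of a gene's libraries.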

Additional observations from a re-analysis of the deposited data

Results flagged for a closer look

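The change of Il1rl1 with temperature differed between ILCs and regulatory T cells, by a test of the difference itself (edgeR, adjusted over every gene tested for that difference). The difference of log2 changes was -1.36 for the ILC gate (-1.82 against -0.49, adjusted p = 0.00404) and -1.28 for the wider ILC gate (-1.75 against -0.49, adjusted p = 1.37e-04), and Il1rl1 was lower in both 4 °C libraries than in both 30 °C libraries in each of these gates.

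The change of Areg differed between the wider ILC gate and regulatory T cells by -1.12 (0.76 against 1.87, adjusted p = 0.0336), with Areg higher in both 4 °C libraries than in both 30 °C libraries in each gate. With the narrower ILC gate the difference was -0.95 (adjusted p = 0.453). The wider gate was chosen after the data were seen. The causes of these differences were not tested.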

How the results depend on the processing

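In the ILC gate, the calls of Il13 (log2 changes 1.52 to 2.25) and Il1rl1 (-2.74 to -1.62) were made in all 14 alternatives run for each, and that of Areg in regulatory T cells in all 13. Counts of genes called moved more. DESeq2 called 94 genes in the ILC gate, 172 in regulatory T cells, 80 in other CD4 T cells and 839 over all cells, against 307, 364, 157 and 66. With the stricter gate 113 and 241 were called in the ILC gate and regulatory T cells; with no limit on other lineages, 85 in the ILC gate and 99 in other CD4 T cells; with no upper limit on genes, 136, 600 and 6 in the ILC gate, regulatory T cells and all cells; with a mitochondrial limit of 15%, 108 over all cells; with no filter on low counts, 824 and 388 in regulatory T cells and other CD4 T cells; and with the wider ILC gate, 683. Leaving out 1 library gave 170 to 460 genes in the ILC gate, 231 to 560 in regulatory T cells, 76 to 453 in other CD4 T cells and 0 to 489 over all cells; no gene passed edgeR's test over all cells without 30 °C replicate 1 (1695 at an unadjusted p under 0.05) or 30 °C replicate 2 (1653). For differences between gates, no filter gave 207 genes for the ILC gate against regulatory T cells, 150 against other CD4 T cells and 46 between the CD4 gates; the stricter gate gave 52 and 46 for the last pair of comparisons, and the wider ILC gate gave 230 against regulatory T cells.

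Among members, Areg in the ILC gate passed with no filter (0.98), Il2 there was lost with the stricter gate (0.69) and with no upper gene limit (0.41), and Il17rb there with the stricter gate (-0.84) and with no limit on other lineages (-0.95). Csf2 turned to 1.81 in the ILC gate without the top cells, and without 30 °C replicate 1 to 2.11 there and 1.16 in the wider gate, where leaving out 1 library gave -0.89 to 1.16. In regulatory T cells Il13 passed with no filter (1.39), and Il1rl1 was lost under DESeq2 (-0.48) and the stricter gate (-0.47). In other CD4 T cells, with no limit on other lineages Areg (1.07), Il13 (2.44), Il4 (1.20) and Il2 (1.02) were lost; with a mitochondrial limit of 15%, Areg (1.01), Il13 (2.46) and Il4 (1.13); with no upper gene limit, Areg (1.02), Il13 (1.88) and Il4 (1.11); under DESeq2, Il4 (1.15); and without top cells, Il13 (2.69). Leaving out 1 library gave ranges of 0.21 to 1.82 for Areg, -0.26 to 1.16 for Il4 and -1.48 to 2.11 for Csf2 in the ILC gate, -0.84 to 2.16 for Il13 and -0.59 to -0.37 for Il1rl1 in regulatory T cells, and 0.72 to 1.54 for Areg, 1.29 to 3.06 for Il13, 0.74 to 1.65 for Il4, 0.73 to 1.44 for Il2 and -1.83 to -0.39 for Il1rl1 in other CD4 T cells. Where an arm then held 1 library, it was assumed to vary like the other arm. The cause of each shift was not tested, except that fewer libraries or cells entered some fits.

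Same-numbered libraries correlated at -0.11 in the ILC gate, 0.298 in regulatory T cells, 0.261 in other CD4 T cells and 0.151 over all cells. With 2 pairs, and nothing in the labels that ties a number to a shared day or batch, these values do not settle whether the numbers pair the libraries. With the replicate number as a block 167, 809, 657 and 8 genes were called in the ILC gate, regulatory T cells, other CD4 T cells and all cells, and Il13 in regulatory T cells (1.31, adjusted p = 0.0190) and Il1rl1 in other CD4 T cells (-0.997, adjusted p = 0.0180) passed. With crossed numbers as a block 562 genes were called in the ILC gate. With 2 libraries per group, single cells can set a gene's sum, and Il5 and Csf2 were too sparse to test in the CD4 gates.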
